A study of Mus musculus with 3 samples.

Results

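The genes described here are 40 regulators, enzymes and carriers of cholesterol and fatty acid synthesis and transport, of 55536 annotated genes in the tables. They were taken by symbol from a list and matched through GENCODE M21 to the identifiers of the larger of 2 gene tables. The rule used no measured value, but the list was drawn up with earlier results of these data known. The 40 genes comprised 5 regulators of sterol-responsive transcription, 8 enzymes of the mevalonate pathway, 11 enzymes from squalene to cholesterol, 6 genes of sterol transport and storage and 10 genes of fatty acid synthesis. RNA carrying poly(A) tails had been sequenced from activated regulatory T cells, which are CD4 T cells that restrain immune responses. The labels record primary cells of a male mouse, 9 weeks old, from 1 donor and 1 biosample, and give neither strain nor genotype, nor the way the cells were sorted or activated. The 3 libraries are technical replicates of that biosample, so each SD below (n = 3) measures technical spread, and no second condition was there to compare with.

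Cells make cholesterol from acetyl-CoA through mevalonate, isoprenoid diphosphates, squalene and lanosterol, and the isoprenoid branch also supplies lipid anchors for proteins and the tail of coenzyme Q. The transcription factors SREBP-1 and SREBP-2 are made as membrane proteins that the escort protein SCAP carries out of the endoplasmic reticulum when sterols are scarce, and INSIG proteins hold them back when sterols are plentiful. T cells raise lipid synthesis when they grow after activation, and in mice the mevalonate pathway is known to be needed for regulatory T cell function.

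The libraries held 31445344, 32612609 and 37259281 expected counts in libraries 1, 2 and 3. All 7 T cell and regulatory T cell markers were detected, with summed levels of 4143, 4037 and 4144 TPM (a transcript level corrected for transcript length and library depth), and Foxp3, the lineage factor, stood at 135 ± 2.65 TPM. Of the markers of other cells, 6 of 8 macrophage genes were detected at summed levels of 61.1 to 63.0 TPM, 4 of 5 B cell genes at 16.7 to 22.3 TPM and 1 of 5 dendritic cell genes at 2.87 to 4.07 TPM. Haemoglobin and other erythroid markers summed to 889, 636 and 713 TPM, with all 5 detected, and granulocyte markers to 20.1, 0.66 and 2.08 TPM, with none of 5 detected in all 3 libraries. None of 6 hepatocyte and adipocyte markers was detected, and their sums were 0.82, 0.67 and 0.89 TPM.

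Detection, taken as at least 1 TPM in all 3 libraries, was reached by 38 of the 40 genes, while 47.3% of the 22028 protein-coding genes reached it. The exceptions were the desaturase genes Scd1 and Fads2. The median of the 40 mean levels was 28.1 TPM, and the 38 detected genes had a median of 29.6 TPM, close to the median of 29.2 TPM over all 10429 detected protein-coding genes. Of the 40 genes, 20 stood above that last median. Levels ran from 215 TPM for Ebp to 0.11 TPM for Fads2, with 5 genes above 100 TPM, 26 from 10 to 100 TPM and 9 below 10 TPM. Together the 40 genes summed to 1615, 1567 and 1562 TPM in libraries 1, 2 and 3. The role groups had medians of 51.7 TPM for the regulators, 24.0 TPM for the mevalonate pathway, 29.6 TPM for the sterol enzymes, 27.7 TPM for transport and storage and 13.2 TPM for fatty acid synthesis.

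**Figure D1:**
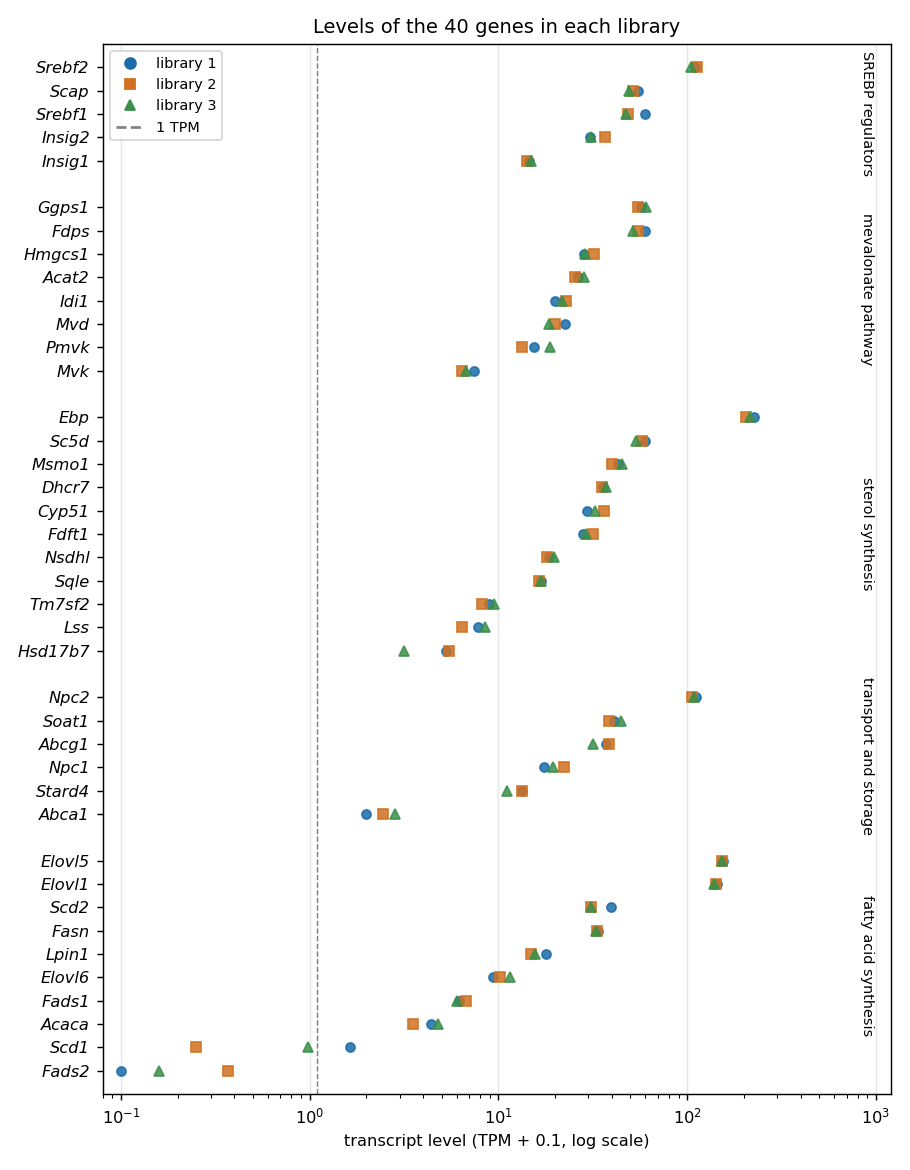
Level of each of the 40 genes in each library, as TPM + 0.1 on a log scale, with genes grouped by role and ordered by mean level within a role. The dashed line marks 1 TPM, and 38 genes lie right of it in all 3 libraries, with Scd1 and Fads2 the exceptions.

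RefSeq promoter windows, from 250 bases before to 50 bases after a start, were at hand for 31 of the 40 genes, as 40 windows on GRCm38.p6. The genes without a window in the table were Abcg1, Npc1, Stard4, Fdps, Fdft1, Sqle, Scd1, Scd2 and Fads1. Short motifs were searched on both strands. Letters matching TCACNCCAC follow a consensus of the sterol regulatory element to which SREBPs bind. A CCAAT box is bound by NF-Y, a known partner of SREBPs at their target genes. The windows printed here are those with at least 4 matches to the box, with the matching letters in capitals, reversed and complemented where the box lies on the other strand. In Hmgcs1 the capitals also mark the sterol element.
Hmgcs1, chr13:119690101-119690400, plus strand: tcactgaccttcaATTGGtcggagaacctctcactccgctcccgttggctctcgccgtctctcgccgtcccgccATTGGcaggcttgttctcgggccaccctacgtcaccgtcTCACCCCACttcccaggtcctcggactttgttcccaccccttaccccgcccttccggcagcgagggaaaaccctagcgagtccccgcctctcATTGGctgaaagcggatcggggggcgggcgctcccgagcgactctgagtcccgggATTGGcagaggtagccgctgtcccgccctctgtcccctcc
Mvk, chr5:114444019-114444318, plus strand: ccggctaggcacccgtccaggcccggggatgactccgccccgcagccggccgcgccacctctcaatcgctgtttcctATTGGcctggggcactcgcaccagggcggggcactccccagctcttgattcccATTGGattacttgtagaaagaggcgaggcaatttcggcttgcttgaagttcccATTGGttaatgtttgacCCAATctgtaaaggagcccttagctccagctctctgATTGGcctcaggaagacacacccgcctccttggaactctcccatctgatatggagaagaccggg
Nsdhl, chrX:72918271-72918570, plus strand: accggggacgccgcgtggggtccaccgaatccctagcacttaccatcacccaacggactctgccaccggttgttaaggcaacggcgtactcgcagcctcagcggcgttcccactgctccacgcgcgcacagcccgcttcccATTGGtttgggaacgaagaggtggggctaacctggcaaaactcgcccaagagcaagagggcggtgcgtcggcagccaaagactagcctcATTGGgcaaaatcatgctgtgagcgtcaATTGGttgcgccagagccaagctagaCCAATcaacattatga
Hmgcs1 was the one gene with a TCACNCCAC match, which began 137 bases before the start. Its window also held 4 CCAAT matches, against 5 in Mvk and 4 in Nsdhl.

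CCAAT was found in 25 of the 40 windows (62.5%), belonging to 24 genes, while 37.4% of all 32851 promoter windows and 38.5% of the 10583 windows of detected protein-coding genes held it. TCACNCCAC was in 2.5% of the genes' windows, 1.24% of all windows and 1.12% of the windows of detected genes. The GC box GGGCGG stood in 72.5% of the genes' windows, against 35.7% of all windows and 63.4% of those of detected genes. The E box CACGTG stood in 20% of the genes' windows, against 7.15% of all and 10.2% of those of detected genes. A TATA box, searched as TATAAA, stood in 7.5% of the genes' windows, against 13.6% of all and 6.68% of those of detected genes. No CCAAT match overlapped a TCACNCCAC match. A match of letters is a description of the sequence, and no binding was measured here.

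Among the regulators, Srebf2, which encodes SREBP-2, the form that favours cholesterol genes, was the highest at 109.49, 113.25 and 104.64 TPM in libraries 1, 2 and 3. Srebf1, which encodes SREBP-1, the form that favours fatty acid genes, had 59.46, 48.47 and 47.10 TPM. The log2 ratio of Srebf2 to Srebf1, on TPM + 0.1 as for every ratio here, was 1.08 ± 0.18, and the lowest Srebf2 value stood above the highest Srebf1 value. For the gene pairs, levels count as separated beyond the spread where the 3 log2 ratios share a sign and average more than 2 SD, as they did here. With 3 libraries an exact sign-flip test cannot go below p = 0.25, so no p is given for any ratio.

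Scap, the escort of both SREBPs, had 51.8 ± 2.73 TPM, next to Srebf1 in the order of levels and not separated from it beyond the spread. Insig1 had 14.34, 14.03 and 14.80 TPM, against 30.56, 36.47 and 30.74 TPM for Insig2, the other endoplasmic reticulum anchor. Between them, the Insig1 to Insig2 log2 ratio was -1.17 ± 0.18, larger than the spread, so the Insig2 level was the higher of the pair in every library.

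By TPM, Srebf1 RNA was spread over several annotated transcripts. Srebf1-201, protein-coding, took 50.4 ± 7.95% of the gene's TPM and begins at base 60220604 of chromosome 11. Srebf1-207, protein-coding as well, took 12.9 ± 0.41% and begins at base 60210465, further along the minus strand. A noncoding transcript, Srebf1-204, took 14.3 ± 4.94%. The start sites of this gene are known to yield proteins that differ at their N terminus. Shares of overlapping transcripts are estimates from short reads, and protein-coding transcripts together held 68.0% of the Srebf1 TPM and 71.1% of the Srebf2 TPM.

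In the mevalonate pathway, every one of the 8 genes was detected, between 6.75 TPM for Mvk and 57.4 TPM for Ggps1. Hmgcs1, which makes hydroxymethylglutaryl-CoA, had 28.41, 31.98 and 28.61 TPM. Acat2, the cytosolic thiolase that starts the pathway, had 26.7 ± 1.49 TPM. The kinase genes Mvk and Pmvk had 6.75 ± 0.54 and 15.7 ± 2.70 TPM, and Mvk was the lowest of these 8 genes. The decarboxylase gene Mvd had 20.2 ± 2.01 TPM and the isomerase gene Idi1 had 21.4 ± 1.46 TPM, a pair that did not differ beyond the spread.

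Fdps and Ggps1, which make farnesyl and geranylgeranyl diphosphate, were the highest of the 8 mevalonate pathway genes. Fdps had 59.64, 54.49 and 51.85 TPM, and Ggps1 had 57.05, 54.76 and 60.45 TPM. Their ranges overlapped, and the log2 ratio of Fdps to Ggps1 was -0.05 ± 0.15, the one of the 18 fixed pairs that was not larger than the spread. On CPM (the same counts per library total, with no length correction) it was -0.80 and in the smaller gene table -0.83, both larger than the spread. Set against Hmgcs1, Fdps had a log2 ratio of 0.90 ± 0.15, larger than the spread. That direction rests on the length correction, since without it, on CPM, the ratio was -0.40, and in the smaller gene table it was -1.33.

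Fdft1, squalene synthase, commits farnesyl diphosphate to sterols, and Ggps1 stands on the branch to protein prenylation. Fdft1 had 27.99, 31.73 and 29.07 TPM, and its log2 ratio to Ggps1 was -0.95 ± 0.15, larger than the spread. In the smaller gene table that ratio was -0.21 and no longer larger than the spread. Sqle, squalene epoxidase, a rate-limiting oxygen-dependent step, had 16.65, 16.34 and 16.66 TPM. Its log2 ratio was -0.84 ± 0.11 to Hmgcs1 and -0.83 ± 0.11 to Fdft1, both larger than the spread, and the ratio to Fdft1 turned to 0.23 in the smaller gene table.

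All 11 genes from squalene synthase to cholesterol were detected. Ebp, a sterol isomerase on chromosome X (8185329 to 8193512, minus strand), was the highest of the 40 genes at 225.62, 204.36 and 215.03 TPM. Its log2 ratio to Elovl5, next in the order, was 0.48 ± 0.06, larger than the spread. That order rests on the length correction, since on CPM Ebp had 113, 107 and 111, against 256, 259 and 256 for Elovl5. Hsd17b7, a ketosteroid reductase gene, was the lowest of the sterol enzymes, with 5.18, 5.37 and 3.05 TPM, and library 3 was the low one.

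Sc5d, a sterol desaturase gene, had 59.59, 57.65 and 53.19 TPM, and Dhcr7, which makes cholesterol from 7-dehydrocholesterol, had 35.61, 35.40 and 36.97 TPM. The log2 ratio of Dhcr7 to Sc5d was -0.66 ± 0.12, larger than the spread, while in the smaller gene table it was -0.01 and not larger. Msmo1, a methylsterol oxidase gene, had 42.6 ± 2.69 TPM and Cyp51, the lanosterol demethylase gene, 32.7 ± 3.39 TPM. The dehydrogenase gene Nsdhl had 18.7 ± 0.79 TPM and the lanosterol synthase gene Lss 7.49 ± 1.08 TPM.

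Tm7sf2 and Lbr encode proteins with the same sterol reductase activity, and Lbr is also a receptor for lamins at the inner nuclear membrane. Tm7sf2 had 8.79, 8.08 and 9.35 TPM, against 276.10, 261.19 and 261.61 TPM for Lbr, which is not among the 40 genes. Their log2 ratio, Tm7sf2 over Lbr, was -4.92 ± 0.11, larger than the spread here and in every alternative setting tried, with -6.24 on CPM and -4.21 in the smaller gene table. Levels of related genes are plotted side by side by family.

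**Figure D2:**
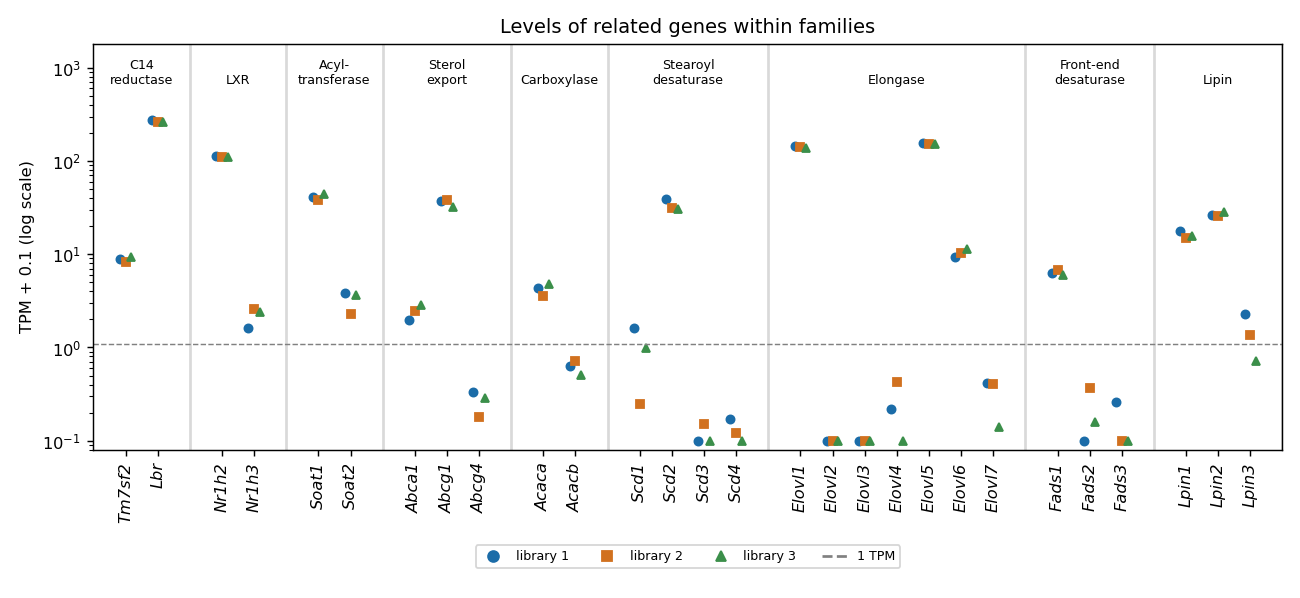
Levels of related genes in each library, as TPM + 0.1 on a log scale, with families parted by grey lines and 1 TPM marked by a dashed line. Within the families, levels lay far apart in pairs such as Tm7sf2 (8.74 TPM) under Lbr (266 TPM) and Scd2 (33.7 TPM) over Scd1 (0.853 TPM).

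Of the 6 sterol transport and storage genes, Npc2 was the highest and Abca1 the lowest. Npc2, which binds cholesterol in the lysosome lumen, had 110.76, 106.18 and 108.30 TPM. Npc1, the membrane protein to which NPC2 hands cholesterol, had 17.44, 22.15 and 19.46 TPM. Npc2 exceeded Npc1 by a log2 ratio of 2.46 ± 0.20, larger than the spread, by 3.98 over protein-coding transcripts only and by 0.35 in the smaller gene table. Npc2 did not differ beyond the spread from Srebf2 above it in the order.

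Abcg1, an exporter of cholesterol to lipoprotein particles, had 37.09, 38.44 and 31.64 TPM. Abca1 (chromosome 4, 53030787 to 53159895, minus strand), the exporter that loads lipid-poor apolipoproteins, had 1.88, 2.34 and 2.72 TPM, the third lowest level of the 40 genes. Abcg1 exceeded Abca1 by a log2 ratio of 3.90 ± 0.38, larger than the spread, and by 2.25 on CPM and 1.42 in the smaller gene table. In a bulk sample, fewer cells that express a gene and less of its RNA per cell cannot be told apart. Macrophages are a known source of Abca1, and their summed markers were 63.0, 61.1 and 62.5 TPM in libraries 1, 2 and 3. Within that list only Lyz2, like Abca1, was highest in library 3, at 21.14, 21.62 and 31.81 TPM. Csf1r, C1qa, C1qb, C1qc, Cd14 and Cd68 were lowest there, with C1qb at 12.36, 10.65 and 7.34 TPM, and Adgre1 was lowest in library 2. The part of macrophages in the Abca1 level was not tested.

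Soat1, which esterifies cholesterol for storage, had 40.99, 38.33 and 44.34 TPM, and its log2 ratio to Abca1 was 4.11 ± 0.23, larger than the spread. It was 2.28 on CPM and 1.29 in the smaller gene table. Stard4, a cytosolic sterol carrier gene, had 12.5 ± 1.30 TPM. Soat2, the acyltransferase known mainly from liver and intestine, is not among the 40 genes and had 3.16 ± 0.87 TPM.

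Fatty acid synthesis genes had the widest proportional range of the role groups, between 153.9 TPM for Elovl5 and 0.11 TPM for Fads2. Fasn, fatty acid synthase, had 33.70, 33.18 and 32.67 TPM. Acaca, acetyl-CoA carboxylase, which makes its malonyl-CoA substrate, had 4.29, 3.45 and 4.70 TPM. Fasn exceeded Acaca by a log2 ratio of 2.98 ± 0.23, larger than the spread, by 3.69 on CPM and by 5.32 in the smaller gene table. The related carboxylase gene Acacb was below detection at 0.52 ± 0.10 TPM.

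The stearoyl-CoA desaturase genes lie near each other on chromosome 19, Scd2 from 44293674 to 44306864 and Scd1 from 44394455 to 44407879. Scd2 had 39.26, 30.94 and 30.82 TPM, and Scd1 had 1.53, 0.15 and 0.88 TPM. The log2 ratio of Scd2 to Scd1 was 5.51 ± 1.27, larger than the spread, and the ratio was largest in library 2, where Scd1 was lowest. Without library 2 it was 4.79, with a pseudocount of 1 it was 4.29 and on CPM 6.16. Scd1 and Scd2 are close paralogs whose expected counts were not whole, so some reads were divided among genes and the Scd1 level is uncertain. Scd1 rested on 79.5, 14.9 and 97.9 expected counts. Scd3 and Scd4, the remaining mouse paralogs, had 0.02 and 0.03 TPM.

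Scd1 is known for high levels in liver and fat. The 6 markers of those tissues each stood at or below 0.58 TPM in every library. Adipoq had 0.58, 0.58 and 0.50 TPM, Plin1 0.07, 0.03 and 0.03 TPM, Alb 0, 0.05 and 0 TPM, and Ttr and Apoa1 no counts. Fabp4, like Scd1, was lowest in library 2, at 0.17, 0.01 and 0.36 TPM. The sum of granulocyte markers, like Scd1 in TPM, was highest in library 1 and lowest in library 2, at 20.1, 0.66 and 2.08 TPM. Of its members, S100a8 and S100a9 had that order. Ly6g had 1.15, 0.11 and 1.16 TPM, Ngp 4.69, 0.45 and 0.44 TPM, and Elane 0.77, 0 and 0 TPM. The part of granulocytes, hepatocytes or adipocytes in the Scd1 level was not tested. On CPM, without the length correction, Scd1 had 2.53, 0.456 and 2.63, so that libraries 1 and 3 were alike and library 2 was low.

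Elovl5 and Elovl1, elongases of polyunsaturated and of long saturated fatty acids, followed Ebp in the order of the 40 genes. Elovl5 (chromosome 9, 77917364 to 77984519, plus strand) had 155.36, 153.09 and 153.25 TPM. Elovl1 (chromosome 4, 118428093 to 118432953, plus strand) had 143.87, 142.13 and 139.20 TPM. Each of these neighbours differed from the next beyond the spread, with a log2 ratio of 0.12 ± 0.02 for Elovl5 over Elovl1 and 0.38 ± 0.04 for Elovl1 over Srebf2. Without the length correction Elovl1 stood below Srebf2, at 104, 105 and 102 CPM against 269, 282 and 253 CPM.

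Elovl6, which lengthens palmitate, had 9.23, 10.12 and 11.42 TPM. The log2 ratio to Elovl6 was 3.90 ± 0.16 for Elovl5 and 3.78 ± 0.18 for Elovl1 (2.54 on CPM), both larger than the spread. Among the elongase genes outside the 40, Elovl4 and Elovl7 had 0.15 and 0.22 TPM, and Elovl2 and Elovl3 had no counts. A gene with 3 counts would have stood at 0.0378 TPM for Elovl2 and 0.0844 TPM for Elovl3, as means over the libraries.

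Fads1, a desaturase of polyunsaturated fatty acids, had 6.12, 6.61 and 5.92 TPM. Fads2, which acts before it in the same pathway and lies near it on chromosome 19 (10062765 to 10101746, minus strand), had 0, 0.27 and 0.06 TPM, from 0, 12 and 4 expected counts. In library 1, a count of 0 allows a level of up to 0.109 TPM. Fads2 over Fads1 gave a log2 ratio of -5.12 ± 0.89, larger than the spread, but its size depends on the pseudocount, being -2.71 with 1 and -6.74 with 0.01. On CPM it was -5.89 and in the smaller gene table -6.27. Fads1 stood above Fads2 in every library.

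Lpin1, a phosphatidate phosphatase gene, had 17.72, 14.86 and 15.59 TPM, against 26.17, 25.48 and 28.24 TPM for Lpin2, which is outside the 40. Lpin1 over Lpin2 gave a log2 ratio of -0.73 ± 0.15, larger than the spread. It was -0.35 on CPM, -0.17 in the smaller gene table and -0.05 over protein-coding transcripts, and in none of these was it larger than the spread.

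**Figure D3:**
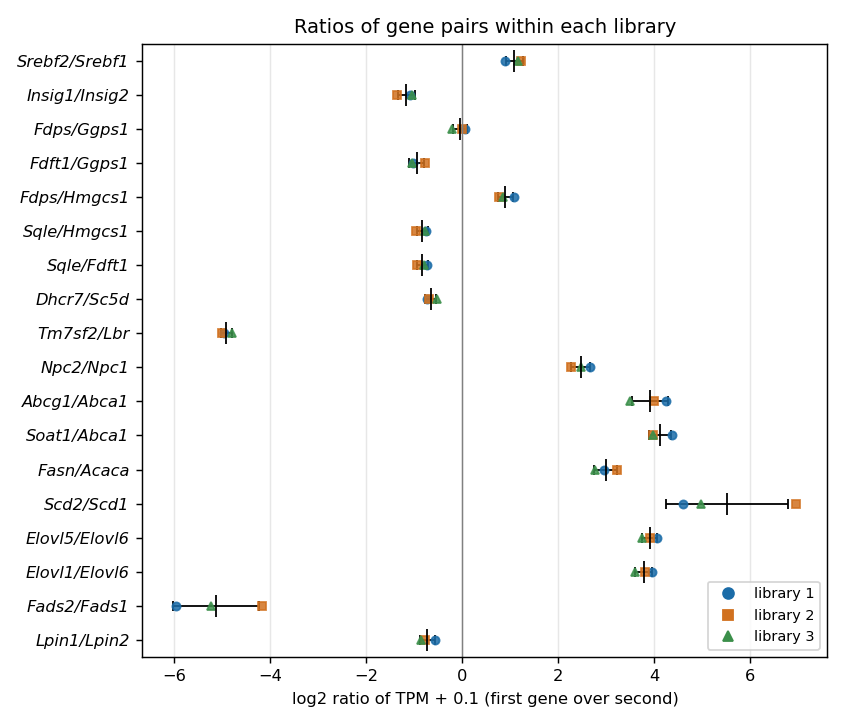
Log2 ratio of TPM + 0.1 within each library for the 18 fixed pairs, first gene over second, with symbols for libraries, a tick for the mean and a bar for 1 SD. All pairs but Fdps/Ggps1 (-0.05 ± 0.15) lie on 1 side of 0 by more than 2 SD.

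Ordered by level in TPM, 12 of the 39 neighbouring pairs of genes differed beyond the spread and 27 did not. The number of such steps was not taken on CPM or in the smaller gene table. At the high end, Ebp, Elovl5 and Elovl1 were each separated from the next. Srebf2 and Npc2 were not separated from each other, and Npc2 stood above Ggps1 by 0.92 ± 0.07 on the log2 scale. Ggps1, Sc5d and Fdps, which follow, did not differ from their neighbours among them. In the middle of the order, from Dhcr7 at 36.0 TPM through Abcg1, Scd2, Fasn and Cyp51 to Insig2 at 32.6 TPM, no neighbours differed beyond the spread. At the low end, Acaca stood above Abca1 by 0.82 ± 0.31, while the steps from Abca1 to Scd1 and from Scd1 to Fads2 were within the spread.

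The transcript tables give how each gene's level is divided among annotated transcripts. The transcript with the largest share of TPM was protein-coding in 38 of the 40 genes and in 36 of the 38 detected genes, while it was protein-coding in 88.1% of the 10429 detected protein-coding genes. The exceptions were Ebp and Npc1. In Ebp, a retained-intron transcript, Ebp-202, took 45.3 ± 1.02% and the coding transcript Ebp-203 took 45.3 ± 1.07%, a near tie by TPM. In Npc1, a noncoding transcript, Npc1-203, took 44.9 ± 8.22%, against 33.2 ± 5.54% for the coding Npc1-201. By share of expected counts, where a short transcript weighs less, Npc1-201 led with 63.7% and the number of genes led by a coding transcript was 39. In Ebp, by that share, Ebp-202 led with 54.5%, against 26.4% for Ebp-203 and 18.9% for the coding Ebp-201.

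Protein-coding transcripts together held 32.8% of the Npc1 level, 44.4% of the Lss level, and 51.8% of both the Msmo1 and the Hsd17b7 level. For Ebp they held 54.4%, which is 117 ± 6.90 TPM, and by that measure the mean of Ebp stood below those of Elovl5 (150.3 TPM) and Elovl1 (128 TPM). Fdft1 had 33.1 ± 1.80% of its level in Fdft1-202, annotated as a target of nonsense-mediated decay, and Mvd had 26.6 ± 6.44% in Mvd-202, annotated likewise. By share of expected counts, Fdft1-202 held 11.7% and Mvd-202 27.5%, and the coding Lss-201 and Hsd17b7-201 held 71.8% and 87.0% of their genes. Retained-intron Lss-205 took 51.1%, 0% and 41.9% of the Lss TPM in libraries 1, 2 and 3. At the other extreme of the TPM shares, Nsdhl, Abca1 and Scd2 had 100% in 1 protein-coding transcript. In 8 genes the leading transcript took at least 90% of the level and in 9 less than 50%.

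**Figure D4:**
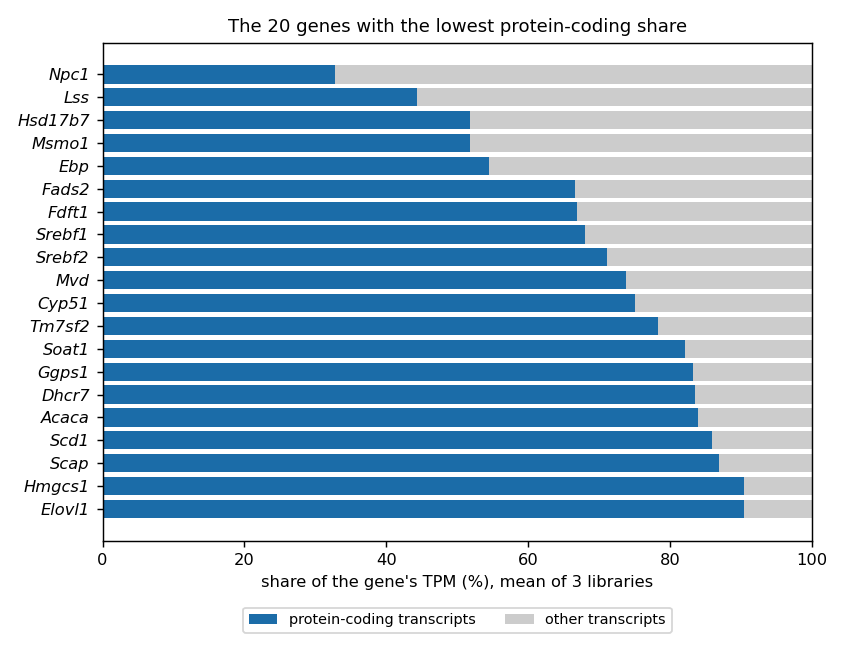
Share of each gene's TPM in protein-coding transcripts (blue) and other transcripts (grey), as the mean of 3 libraries in percent, for the 20 genes with the lowest share. Npc1 (32.8%) and Lss (44.4%) lie below 50%.

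Spread between the libraries was tested per gene with a chi-square test of equal shares of the counts over the 3 libraries, with Benjamini-Hochberg adjustment over all 15945 genes tested. Of the 39 genes tested here, 28 varied (adjusted p below 0.05), and 65.8% of all tested genes did. Fads2 had too few counts for the test. Because most genes varied, the size of the spread beyond counting noise was also taken, as a coefficient of variation, and 6 of the 39 genes varied with an excess of at least 10%, against 36.9% of all tested genes. These were Scd1 (62.8%), Hsd17b7 (26.3%), Abca1 (18.0%), Pmvk (13.3%), Scd2 (13.0%) and Tm7sf2 (10.5%). The median excess was 5.62% over these genes and 8.49% over all tested genes. At a mean count of 300 to 3000 it was 6.34% over 26 genes and 6.96% over 6339 genes.

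When the statistic was divided by the overdispersion that all tested genes shared, 8.61, only Scd2 of the 39 genes varied, and 1.85% of all tested genes did. Scd2 was high in library 1, at 131.5 CPM, against 106.4 and 104.6 in libraries 2 and 3. Erythroid markers were also highest in library 1, at 889 TPM against 636 and 713 TPM. So were the sums of granulocyte markers, at 20.1, 0.66 and 2.08 TPM, and of B cell markers, at 22.3, 16.7 and 17.9 TPM. Within those lists Ly6g (1.15, 0.11 and 1.16 TPM) and Ms4a1 (2.9, 1.73 and 3.45 TPM) were highest in library 3. Cd22 (5.3, 6.97 and 4.7 TPM) was highest in library 2, and the other members of both lists in library 1. Sums for macrophages (62.97, 61.11 and 62.45 TPM) and dendritic cells (4.07, 2.87 and 3.52 TPM) were highest there too. Those for T cells (4143, 4037 and 4144 TPM) and for hepatocytes and adipocytes (0.82, 0.67 and 0.89 TPM) were highest in library 3. For macrophages and T cells, libraries 1 and 3 were nearly equal, and members of these lists did not all follow the sums. The part of any of these cells in the Scd2 spread was not tested. The genes that did not vary in the unscaled test were Elovl5, Elovl1, Npc2, Ggps1, Dhcr7, Npc1, Nsdhl, Sqle, Insig1, Mvk and Acaca.

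**Figure D5:**
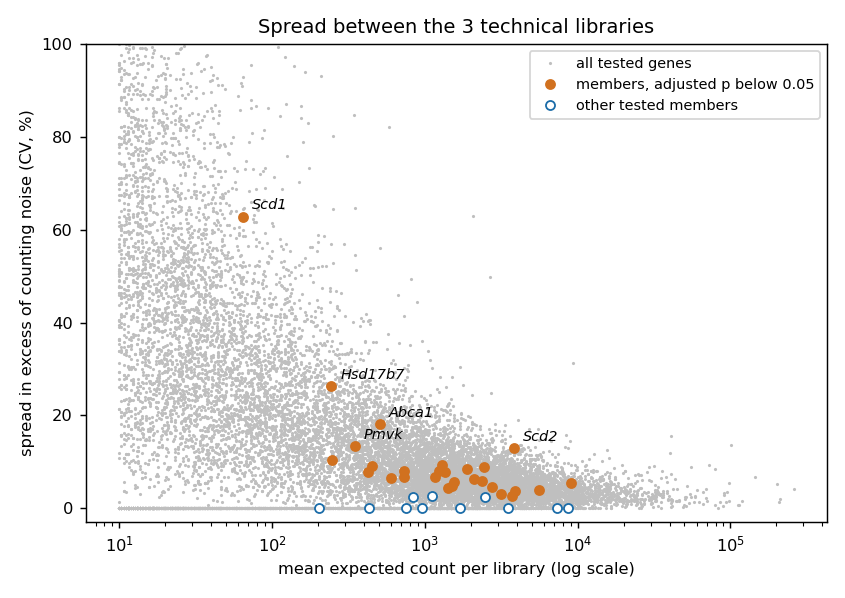
Spread between the 3 libraries in excess of counting noise (coefficient of variation, percent) against mean expected count (log scale) for all tested genes (grey), genes described here with an adjusted p below 0.05 (orange) and the others tested (open blue). Scd1 lies highest of the genes described here, at 62.8%, with grey points above it, and 279 other tested genes lie above the plotted range.

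Further genes of the same pathways were taken from lists of 84 symbols, of which 83 matched. Of these 61 were detected and 22 were not, with a median level of 17.4 TPM, against 47.3% of protein-coding genes detected. Of the 67 tested, 46 varied between libraries, a share near the 65.8% of all tested genes. Among 12 further regulators, 11 were detected, among them the oxysterol receptor gene Nr1h2 at 110.2 ± 1.45 TPM and the SREBP protease gene Mbtps1 at 57.8 ± 5.22 TPM. The related receptor gene Nr1h3 had 2.10 ± 0.51 TPM. Among 15 genes of the mevalonate pathway, prenylation and related branches, 13 were detected, led by Fnta, a subunit shared by farnesyl and geranylgeranyl transferases, at 80.4 ± 7.13 TPM, Rabggta, a subunit of the Rab prenyltransferase, at 50.4 ± 1.69 TPM, and Rce1, a protease of prenylated proteins, at 48.5 ± 2.43 TPM.

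Among 7 further sterol genes, 4 were detected, led by Lbr at 266 ± 8.49 TPM, Erg28, known from yeast as a scaffold of sterol enzymes, at 79.5 ± 5.84 TPM, and Ebpl at 17.4 ± 1.22 TPM. Ch25h, which makes an oxysterol, had no counts, with 3 counts standing for 0.107 TPM. Among 20 transport genes, 17 were detected, led by Gramd1a, a carrier of sterol between membranes, at 251 ± 28.1 TPM, Osbpl9, of the oxysterol-binding protein family, at 107.7 ± 1.02 TPM, and the lysosomal lipase gene Lipa at 61.7 ± 1.24 TPM. Among 29 fatty acid genes, 16 were detected, led by the elongation-cycle genes Tecr and Hacd3, at 340.1 ± 14.7 and 105.8 ± 2.83 TPM, and the acyl-CoA synthetase gene Acsl5 at 127 ± 6.64 TPM.

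In the smaller gene table, whole-number counts were a median 37.9% of the expected counts over the 35 genes with a mean expected count of at least 300, against 42.8% over all 8724 such genes present in both tables. The ratio was lowest for Idi1, at 1.03%, and for Npc2, at 10.6%. Of the 40 genes, 20 had expected counts that were not whole in some library, so that reads were divided with other features, and Idi1, Fdps, Acat2 and Scd2 were among them, while Npc2 was not.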

How the data were processed

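PolyA-selected RNA-seq was deposited for 3 technical libraries of 1 biosample of activated regulatory T cells. Per the file headers, the authors deposited expected counts, which divide reads among the features they fit, and TPM, per gene and per transcript, on mm10 with GENCODE M21. A further, smaller gene table from the authors lists whole-number counts of 22457 genes with GENCODE M4. Neither aligner nor quantification program is given in the sources used here. The use of strand is not stated there either, and overlapping or antisense genes may share reads. Its counts ran lower than the expected counts and were not corrected for length, so it served as an alternative only.

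Of 81881 rows of the larger table, 26345 matched no annotated gene and were left out, at 0.125%, 0.182% and 0.155% of all counts in libraries 1, 2 and 3. Totals of the smaller table were 8827129, 8758421 and 9555924 counts. Expected counts were rounded for the chi-square test (2 degrees of freedom, summed count of at least 30), which measures only the spread between these libraries. The test was tried on simulated counts with counting noise only. That trial does not cover the overdispersion of 8.61 in the real counts. A pseudocount of 0.1 was added before logs. The reads carry no molecular identifiers, and floors, taken as 3 counts, thus cover counting error only. TMM from edgeR 4.0.16 and size factors from DESeq2 1.42.0 were alternatives, with R 4.3.3, Python 3.11.15, pandas 2.3.3, scipy 1.17.1, statsmodels 0.14.6 and matplotlib 3.10.9.

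Values in every library are given for genes in a fixed pair, the 3 highest, the 3 lowest and the undetected. Other members are given by mean or range, and of the further pathway lists the 3 highest genes, those in a pair and related family members chosen after their values were seen. The members, lists, pairs and motifs were chosen with earlier results of these data known. The windows of detected genes as a second motif background, the ratio of smaller to expected counts and the windows printed were chosen after seeing the data. One list symbol, Faxdc2, matched no gene, and a gene that this rule would name is not reported here.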

Additional observations from a re-analysis of the deposited data

How the results depend on the processing

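Detection of 35 to 38 genes and 14 to 17 of 18 pairs larger than the spread were found in all settings tried. The median level was 21.6 TPM over protein-coding transcripts only and 17.6 TPM over the genes without shared reads. The log2 ratio of Fdps to Hmgcs1 was -0.40 on CPM and -1.33 in the smaller gene table, and that of Sqle to Fdft1 was 0.23 in the smaller table. CPM differ from TPM by the length correction. The smaller table differs in further ways, and the cause there was not tested; Sqle to Fdft1 was -0.49 on CPM. Genes described here that varied between libraries numbered 14 to 20, of 28, when a library was left out (14 without library 2, 14 without library 3), and all genes that varied numbered 6069 to 7265, of 10487 (6069 without library 2, 6656 without library 3). With the shared overdispersion the numbers were 1 and 295, on the smaller table's counts they were 8 and 3845, and with TMM or DESeq2 size factors 25 of the genes described here, beside 10467 (TMM) and 10470 (DESeq2) of all genes. At 3 SD, 7 neighbouring genes differed. CCAAT on the forward strand alone was in 14 genes, against 24 on both strands (45.2% against 77.4% of the genes with a window, and 23.7% against 41.1% of all genes). Depth limits Scd1 and Fads2, which rest on few counts. No paired analysis was possible because the labels give a single group.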
